A study of Mus musculus with 2 samples.

Results

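The 3' regulatory region of Igh, the immunoglobulin heavy chain locus on mouse chromosome 12, was followed through its contacts with the rest of the locus. Its span was taken as chr12:114465909-114496828 (mm9), 30.9 kb next to Igha, which holds 6 probed HindIII fragments with primer numbers from 28 to 35. All pairs of a forward and a reverse primer with fragment midpoints at least 10 kb apart and at least 1 fragment in that span were kept, whatever their count. They make 602 of the 10415 pairs at that distance.

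Contacts were measured by chromosome conformation capture carbon copy (5C), in which crosslinked chromatin is cut with HindIII and ligated, and ligation junctions are then amplified between forward and reverse primers and sequenced. A fragment carries either a forward or a reverse primer, so fragments of the same kind give no value with each other. The cells were splenic B cells of C57Bl/6 mice, selected as CD43-, that were grown for 40 hours ex vivo with lipopolysaccharide (LPS) and interleukin 4 (IL4, 10 ng/ml). They form 1 group of 2 replicates, named as biological replicates by the series, with no resting or differently treated cells beside them. Contacts could therefore be compared between sections of the locus and not between conditions. The tables hold no expression values, so the cell type was not checked against markers. In a population of cells, a contact in more cells and a tighter contact in each cell cannot be told apart.

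The 3' regulatory region is a cluster of enhancers downstream of the last constant gene, and it is known for its role in class switch recombination and in high heavy chain expression of plasma cells. Emu is the intronic enhancer between the J segments and Ighm, next to the switch region at which class switch recombination starts. Class switching joins the switch region of Ighm to that of a downstream constant gene and removes the DNA between them, and LPS with IL4 is a culture that directs it to Ighg1 and Ighe. Along mm9 chromosome 12 the order from low to high positions is the 3' flank, the 3' regulatory region, Igha, the other constant genes up to Ighm, Emu and J, D and V. Partner sections were bounded by approximate mm9 positions from general knowledge of the locus, because no mm9 annotation was used. A fragment near a boundary may belong to the neighbouring section, and no fragment was assigned to a single gene or enhancer.

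The deposited tables summed to 14503618 counts in replicate 1 and 17658603 in replicate 2. The 602 pairs held 901013 and 1969321 of them. Their median count was 136.5 in replicate 1, with a 95% exact Poisson interval from 114.56 to 161. In replicate 2 it was 194, with an interval from 168 to 223. These intervals cover counting error only. Over all 10415 pairs the medians were 40 and 71. A count of 0 occurred once, in replicate 1. A further 7 pairs of the region lay closer than 10 kb and were left out.

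A pair's value is given on 3 scales. The first is its count. The second is the count ratio, the count over the count expected at that distance from a lowess curve through all pairs of the replicate. The third is the primer-adjusted ratio, from which the median level of each forward and each reverse primer was also removed, so that its median over all pairs is 1. The adjustment takes out whatever a fragment shares with all of its partners, whether it comes from the primer or from the chromatin, and these sources cannot be told apart. Distances on both ratio scales are those between mm9 positions. Whether all cells kept the DNA between the fragments of a pair was not measured, so the distance in a cell may differ. This holds for D and V partners too.

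The region's pairs stood above the distance trend as a set. Their median count ratio was 1.11 in replicate 1 and 1.18 in replicate 2, against 0.328 and 0.381 for all other pairs. The neighbouring primers 36 to 43, toward the constant genes, were also above all other pairs, at 0.845 and 0.686 over 705 pairs. Primers 20 to 27, in the flank, had 0.154 and 0.399 over 510 pairs. The difference between the region and all other pairs was carried unevenly by the 6 fragments. Except for reverse fragment 29 in replicate 1, it was shared by most partners of each fragment. Reverse fragment 33 (chr12:114486613-114491122) had the highest median count ratio in replicate 1, at 3.07, and 2.37 in replicate 2. Forward fragment 28 (chr12:114465909-114474052), the outermost one, had medians of 1.16 and 2.37. Reverse fragment 29 (chr12:114474053-114474922) was lowest, at 0.311 and 0.412. Between them lay forward fragment 31 (chr12:114477117-114480873) at 1.69 and 1.30 and reverse fragment 35 (chr12:114493852-114496828) at 1.60 and 1.203. Forward fragment 34 (chr12:114491123-114493851) had medians of 0.624 and 0.712. The order of fragments 28, 31 and 35 changed between the replicates. With primer levels removed, the median over the 602 pairs was 0.9998 and 0.999, which the adjustment largely fixes, so the remaining values describe how each fragment divides its contacts among partners.

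That division was strongly uneven along the locus. The medians of the primer-adjusted ratio were highest for partners in the Emu and J section, at 8.12 in replicate 1 and 11.9 in replicate 2 over 15 pairs. They came next for the section from Ighg3 to Ighm, at 3.17 and 3.67 over 33 pairs, and for the 4 pairs within the region, at 2.09 and 1.91. The section from Ighg2b to Ighg3 followed, at 1.72 and 1.81 over 21 pairs. Partners from Igha to Ighg2c, although nearest on that side, had medians of 0.882 and 0.952 over 16 pairs. The contacts of the region with the constant genes were thus higher over the distance trend toward the Ighm end than beside Igha, in both replicates. D partners had medians of 1.31 and 1.18 over 18 pairs, and V partners 1.02 and 1.0 over 369 pairs. Lowest of all on this scale was the flank on the far side from the constant genes, at 0.379 and 0.394 over 60 pairs. On count ratios the rise toward Ighm was also present, with medians of 1.83 and 1.07, 3.25 and 2.44, and 4.12 and 3.22 in the order of the 3 constant gene sections. There the Emu and J section, at 4.38 and 3.51, differed from the Ighg3 to Ighm section by less than the replicates differed. On that scale the 4 pairs within the region, at 5.22 and 3.44, were above it in replicate 1 only. No test between sections was run.

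**Figure D1:**
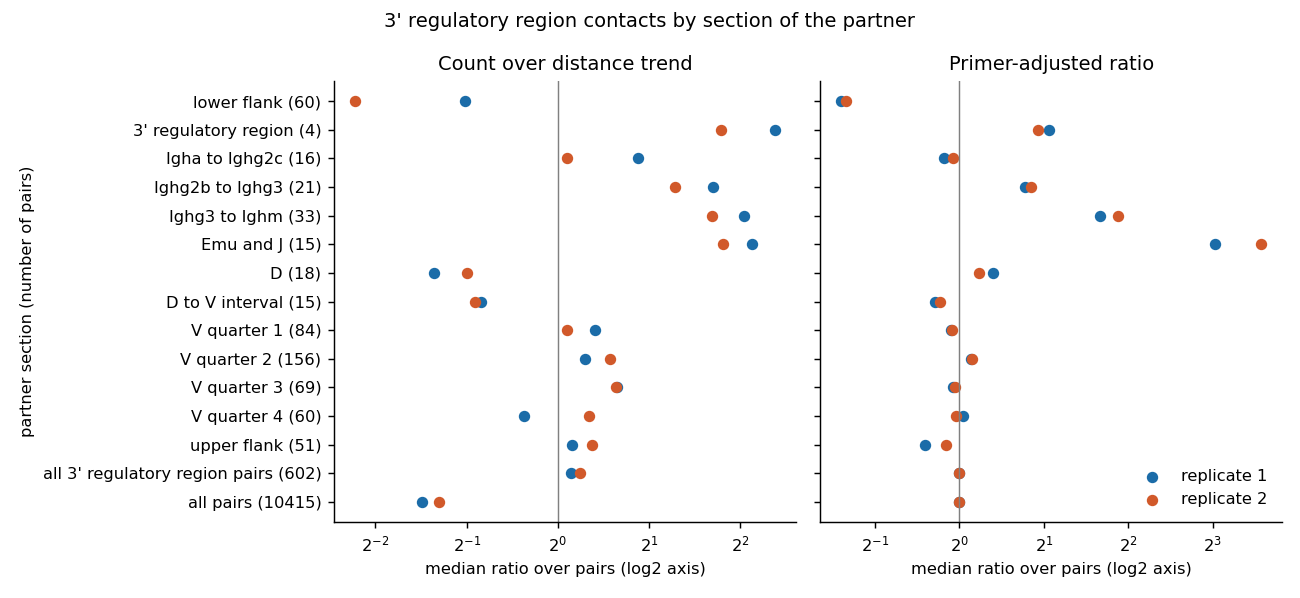
The plot of medians by partner section shows, for each replicate, the median count ratio (left) and the median primer-adjusted ratio (right) over the pairs of each section, on log2 axes, with the number of pairs in brackets and all 602 and all 10415 pairs at the bottom. On the right the medians rise from below 1 beside Igha to 8.12 and 11.9 in the Emu and J section, and the lower flank lies at 0.379 and 0.394.

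**Figure D2:**
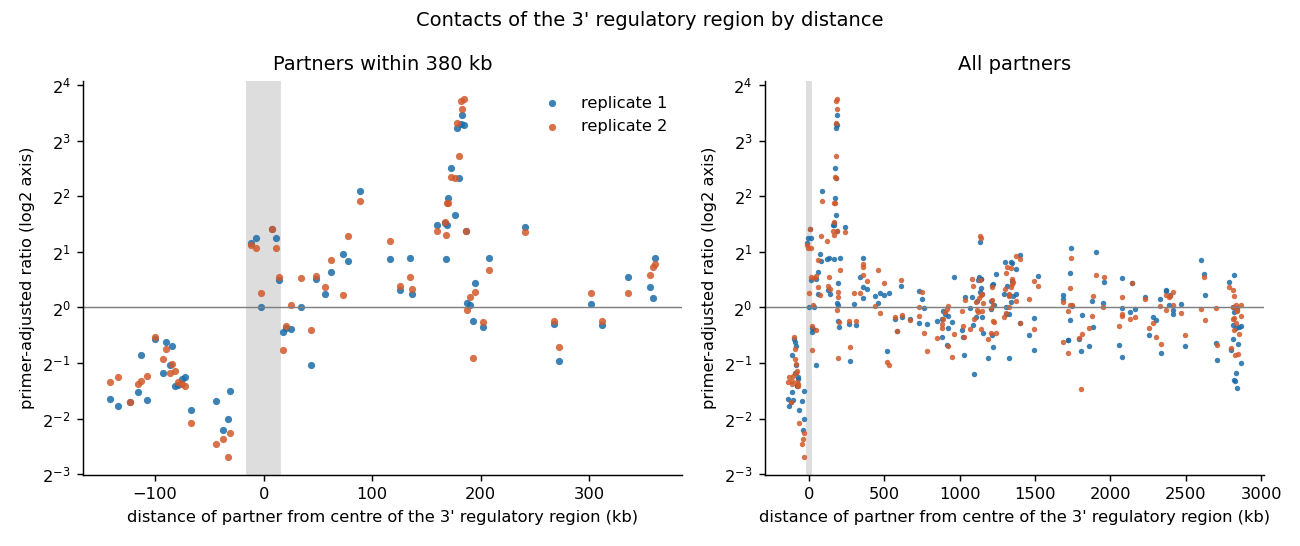
The plot along the locus shows, for each partner fragment, the median primer-adjusted ratio over the region fragments of the other primer kind (log2 axis) against its distance in kb from the centre of the region (grey band), near the region (left) and for all partners (right). The highest points of both replicates stand near Emu, the 20 fragments of the lower flank lie below 1 in both replicates, and V partners scatter around 1.

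Within the Emu and J section the contacts were concentrated on 3 of its 5 fragments. These were reverse 79 (chr12:114662159-114664063), forward 80 (chr12:114664064-114664823) and reverse 81 (chr12:114664824-114667095), singled out with their values in view. All 9 of their pairs with the region had a primer-adjusted ratio of at least 5 in both replicates, with a range of 7.31 to 12.7 in replicate 1 and 8.41 to 17.0 in replicate 2. Of all 10415 pairs, 0.883% passed that level in both replicates, as did 18 of the region's 602. The remaining 9 of those 18 pairs comprised 7 in the Ighg3 to Ighm section, 1 in the lower flank and 1 in V.

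Reverse 81 gave the highest counts. Its pair with forward 28 had 36508 counts in replicate 1 and 56969 in replicate 2. Its pair with forward 31 had 42241 and 33792 counts, and its pair with forward 34 had 20047 and 25487. At distances of 196, 187 and 173 kb, these counts exceeded the distance trend in both replicates. The mean count ratios were 76.5 ± 4.05 (SD, n = 2) for forward 28, 62.1 ± 25.2 for forward 31 and 32.5 ± 2.92 for forward 34. With primer levels removed, the 3 pairs came to similar values, at 9.76 and 12.7 for forward 28, 8.12 and 13.5 for forward 31 and 12.3 and 17.0 for forward 34. The differences between these 3 pairs were then of the size of the differences between replicates.

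The neighbours of reverse 81 showed lower counts and similar adjusted ratios. Reverse 79 had 1817 and 7556 counts with forward 28, 2486 and 4134 with forward 31 and 818 and 2347 with forward 34, at adjusted ratios from 9.72 to 10.1 in replicate 1 and from 12.5 to 13.5 in replicate 2. Forward 80 had 16826 and 18857 counts with reverse 33, a count ratio of 26.2 ± 4.65 (SD, n = 2), and adjusted ratios of 11.0 and 15.6. With reverse 29 it had 2265 and 2627 counts and adjusted ratios of 12.7 and 11.9, and with reverse 35 it had 5729 and 5156 counts and adjusted ratios of 7.31 and 8.41. Reverse 29, the fragment with the lowest counts of the 6, thus had an adjusted ratio with forward 80 in the same range as the others. All 6 fragments of the region took part, those of either primer kind included.

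The values fell sharply on the D side. Whether all cells kept the DNA of this stretch was not measured, so the fall is only described. The next fragment, forward 82 (chr12:114667096-114667886), had 552 and 282 counts with reverse 29, 3101 and 2274 with reverse 33 and 1404 and 778 with reverse 35. Its adjusted ratios ranged from 2.29 to 3.95 in replicate 1 and from 2.57 to 3.82 in replicate 2. Reverse 83 (chr12:114667887-114670119) had 456 and 737 counts with forward 28, 1521 and 1088 with forward 31 and 392 and 435 with forward 34, at adjusted ratios of 0.532 to 1.28 and 0.543 to 1.43. Reverse 83 lies within the same section and next to forward 82, and its values lay on both sides of the median of all pairs. In this order the ranges of reverse 81, forward 82 and reverse 83 did not overlap in either replicate.

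On the constant gene side high values reached further, with a rise and fall from fragment to fragment. In order away from reverse 79, the median adjusted ratios over 3 region fragments were 5.04 and 6.63 for forward 78 and 9.37 and 9.98 for reverse 77 (chr12:114658751-114659958). Next came 3.17 and 5.03 for forward 76 and 5.73 and 5.10 for reverse 75 (chr12:114652514-114656272). Further away they were 3.91 and 3.68 for forward 74, 2.78 and 3.66 for reverse 73 and 1.82 and 2.48 for forward 71. They were then 2.86 and 2.90 for reverse 70 and 2.80 and 2.61 for forward 68 (chr12:114638362-114643285). At the far end of the Ighg3 to Ighm section they were 1.19 and 1.25 for reverse 61 and 1.84 and 1.46 for forward 58. By the lower of its 2 replicate values, the highest pair of this section was forward 31 with reverse 77, with 3822 and 5384 counts and adjusted ratios of 10.1 and 9.73. Forward 34 with reverse 77 was higher in replicate 2, at 9.37 and 19.8, and forward 28 with reverse 77 stood at 5.71 and 9.98. Forward 31 with reverse 75 had 8428 and 6659 counts and a count ratio of 14.7 and 8.07. The stretch of high values thus began within the section that ends at Ighm and ended between reverse 81 and reverse 83. In each of the 6 region fragments the median over the Ighg3 to Ighm partners was above 2 in both replicates, from 2.78 to 4.74 in replicate 1 and from 2.60 to 6.11 in replicate 2.

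Read from these partners, the region held the first places on the adjusted scale. Among the 93 partners of reverse 79, the 93 of reverse 81 and the 103 of forward 80, the 3 region fragments ranked 1 to 3 by adjusted ratio in both replicates. The same held for the 92 partners of reverse 77. By count ratio the places were less uniform: forward 34 ranked 6 and 4 for reverse 79, 4 and 5 for reverse 81 and 5 and 2 for reverse 77, and reverse 29 ranked 3 and 4 for forward 80. For reverse 83 the region fragments ranked from 37 to 74 by adjusted ratio. These ranks are descriptions, because these partners were chosen with their values in view.

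The fragments on either side of the region gave other values with the same partners. Primers 36 to 43, which continue toward the constant genes and lie nearer to Emu, had a median adjusted ratio of 0.986 and 1.11 with the Emu and J section over 18 pairs. Primers 20 to 27, in the flank, had 0.696 and 0.511 over 13 pairs. With the Ighg3 to Ighm section, primers 36 to 43 had medians of 2.31 and 2.30, near the 3.17 and 3.67 of the region, and primers 20 to 27 had 0.772 and 0.948. A single partner there, forward 71, had medians of 11.8 and 8.13 with primers 20 to 27, over 2 pairs only. With the region its medians were 1.82 and 2.48 over 3 pairs. Of the 27 pairs of primers 20 to 27 with this section, 1 had an adjusted ratio of at least 2 in both replicates. The contrast between the region and its constant gene side was thus wide in the Emu and J section and narrow from Ighg3 to Ighm; neither was tested.

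**Figure D3:**
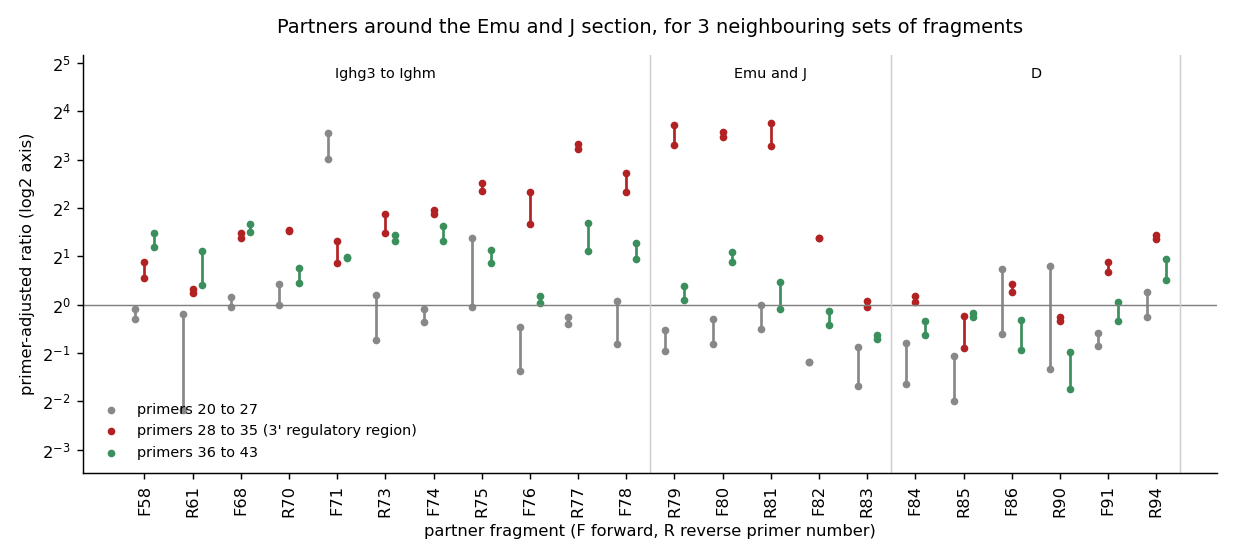
The plot of the Emu surroundings shows the median primer-adjusted ratio (log2 axis) of each partner fragment with the region and with primers 20 to 27 and 36 to 43, in order along the chromosome, with 1 point per replicate joined by a line. The region's values are highest at reverse 77 and at reverse 79 to reverse 81 and return to about 1 at reverse 83, while primers 36 to 43 lie between 0.608 and 2.13 in replicate 1 in the Emu and J section.

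Calls against the distance trend gave a narrower view. A pair was called when its Benjamini-Hochberg q, from a Weibull upper tail over all 10415 pairs, was under 0.01 in both replicates. Of the region's pairs 7 were called, where 0.259% of all pairs were. Reverse 81 with forward 28, 31 and 34, and forward 80 with reverse 33, made up 4 of them, and the higher q of the 2 replicates was 1.49e-12, 4.58e-08, 0.000311 and 0.00685 in that order. These 4 calls were lost with primer levels removed by means or by medians, where the higher q lay between 0.0396 and 0.802, and on a log2 scale. Forward 80 with reverse 33 was also lost with no minimum distance, at a q of 0.0143. The corrections remove the levels of both fragments of a pair, and on the log2 scale no primer level was removed. The losses therefore do not show which fragment's level the calls rest on.

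A further 2 calls joined reverse 33 to V fragments more than 1 Mb away. Forward 346 (chr12:115628291-115630212) had 950 counts in replicate 1 and 669 in replicate 2, a count ratio of 11.6 ± 5.06 (SD, n = 2). Forward 415 (chr12:115816276-115822016) had 967 and 733 counts, a ratio of 12.3 ± 5.06. Their adjusted ratios were 1.15 and 1.65 for forward 346 and 1.07 and 1.29 for forward 415, close to the median of all pairs. Neither call held with primer levels removed, with higher q values of 0.683 to 0.893. With a lowess span of 0.6 both were also lost, at 0.0230 and 0.0831, as was forward 346 with a span of 0.1, at 0.0417, and forward 415 with no minimum distance, at 0.0288.

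The seventh call was forward 28 with reverse 24 (chr12:114447061-114449887) in the flank, 21.5 kb away. It had 186765 counts in replicate 1 and 1027548 in replicate 2, and a count ratio of 91.5 ± 60.1 (SD, n = 2). Its adjusted ratios were 319 and 186, the highest of all the region's pairs, and it was called with primer levels removed as well, though not on a log2 scale or with no minimum distance (q of 0.505 and 0.0467). This 1 pair held 20.7% and 52.2% of the counts of the region's 602 pairs and 1.29% and 5.82% of the whole table. Among pairs at least 10 kb apart, it held 98.8% and 99.2% of the counts of reverse 24. The other region fragments had few counts with reverse 24, at 55 and 172 for forward 31 and 32 and 131 for forward 34. Forward 28 with the neighbouring reverse 22 had 2331 and 19453 counts and adjusted ratios of 1.40 and 1.74. The fragments beside this pair thus showed no counts of its size, and its counts differed between replicates by more than the totals did. Its origin was not tested, and sums of counts over the lower flank rest on it. The distance trend behind the count ratios was also fitted with this pair included. All pairs from 10 to 25 kb apart summed to 974365 and 2178575 counts, this pair among them. How far the count ratios at short distances depend on it was not tested.

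**Figure D4:**
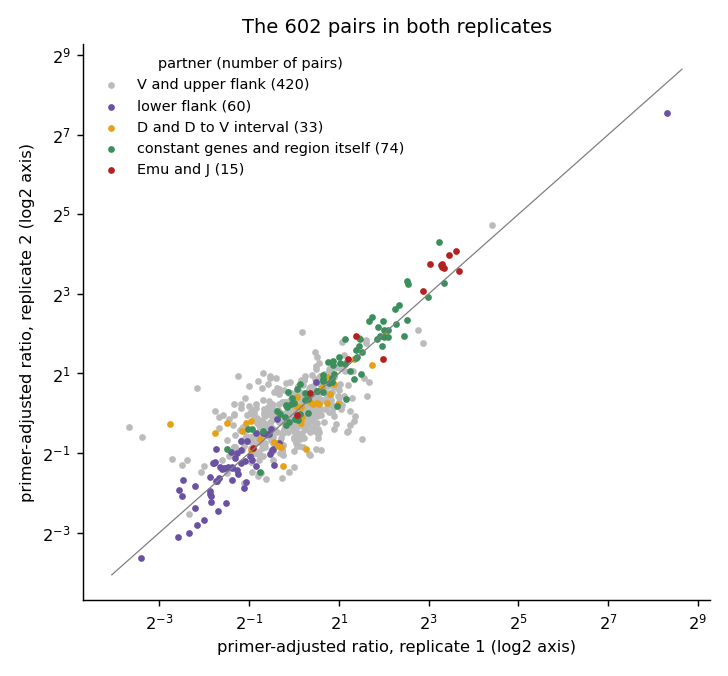
The scatter of replicates shows the primer-adjusted ratio of each of the 602 pairs in replicate 1 (x axis) against replicate 2 (y axis), on log2 axes, coloured by the section of the partner, with a line where both are equal. Forward 28 with reverse 24 stands alone at 319 and 186, forward 34 with reverse 181 follows at 21.4 and 26.5, and 9 Emu and J pairs lie above 5 in both replicates.

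Away from that pair, the flank was the section with the lowest primer-adjusted ratios. Its 20 fragments all had a median adjusted ratio below 1 in both replicates, and 58 of its 60 pairs lay below 1 in both. Of the 602 pairs, 49 were at 0.5 or lower in both replicates, against 4.2% of all pairs, and 38 of the 49 were in the flank. The fragments nearest to the region, with primers 20 to 25, lay at 0.216 to 0.352 in replicate 1 and 0.155 to 0.238 in replicate 2. Those further out lay from 0.293 to 0.675 and from 0.310 to 0.696, which overlaps the nearer ones in replicate 1 and not in replicate 2. On count ratios, with the primer levels kept, the flank's median was 0.493 and 0.214. The median of all pairs, over all distances, was 0.357 and 0.404. At like distances the order depended on the distance. From 25 to 50 kb the flank was lower, at 0.0927 and 0.126 against 0.157 and 0.148 for all pairs. From 50 to 100 kb it was higher, at 0.509 and 0.235 against 0.167 and 0.183. From 100 to 140 kb it was also higher, at 0.509 and 0.262 against 0.219 and 0.231. The D section was lower than the flank on that scale in replicate 1, at 0.389.

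From 25 to 100 kb away, the asymmetry around the region was also present in counts. At 10 to 25 kb the order was the opposite: 2 flank pairs, of which forward 28 with reverse 24 is 1, had median counts of 93404 and 513868, and 6 constant gene pairs had 11693.5 and 11539.5. The other flank pair there had an adjusted ratio of 0.166 and 0.115. From 25 to 50 kb away, 8 flank pairs had median counts of 227 and 616.5, and 9 constant gene pairs had 5042 and 5598. From 50 to 100 kb away, 27 flank pairs had median counts of 711 and 561, and 16 constant gene pairs had 4481 and 6997.5. The adjusted medians were 0.412 and 0.407 for the flank and 1.74 and 1.81 for the constant genes at this distance. Fragments 20 to 27 themselves had a median of 1.06 and 1.03 with the rest of the flank, and 0.277 and 0.209 with the region. Fragments 36 to 43 had 0.485 and 0.534 with the flank. Among the region's own fragments, forward 28, the outermost, had the highest median with the flank, at 0.696 and 0.694, and reverse 29 next to it had 0.274 and 0.272.

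Within the constant genes the highest primer-adjusted pair of each section can be named. Forward 34 with reverse 41 led the Igha to Ighg2c section, at 1.58 and 1.76. Forward 49 (chr12:114559616-114579798) with reverse 35 led the Ighg2b to Ighg3 section, with 10406 and 12833 counts at 74.4 kb and adjusted ratios of 5.43 and 3.84. Forward 49 also had a median of 4.25 and 3.79 over 3 region fragments, which stood above its neighbours in the section in both replicates, and its median with primers 36 to 43 was 3.27 and 3.05. Over the 70 constant gene pairs, 30 (42.9%) had an adjusted ratio of at least 2 in both replicates, against 5.74% of all pairs, and 0 were at 0.5 or lower in both, against 4.2%. The high share was not particular to the region. Of the 58 constant gene pairs of primers 36 to 43, 23 (39.7%) were at least 2 in both replicates, and 1 was at 0.5 or lower in both. Within the region itself, forward 28 with reverse 33 was highest, with 72584 and 136433 counts and adjusted ratios of 2.65 in both replicates.

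D partners had lower medians than the Emu and J section on both ratio scales. The 18 pairs had count ratios with a median of 0.389 and 0.5003. Of them 4 (22.2%) had adjusted ratios of at least 2 in both replicates, against 5.74% of all pairs. The highest was forward 84 with reverse 29, with 315 and 508 counts and adjusted ratios of 4.07 and 3.87. Reverse 94 (chr12:114722112-114723013), the D fragment furthest from Emu, had a median over 3 region fragments of 2.72 and 2.57, a fragment likewise chosen with its values in view. The interval between D and V had medians of 0.816 and 0.8498, led by forward 28 with reverse 125 at 1.70 and 1.88.

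V partners carried count ratios above the median of all pairs over all distances, at 1.23 and 1.30 against 0.357 and 0.404. The upper flank beyond V had similar medians, at 1.115 and 1.30 over 51 pairs, so the excess was not particular to V. Primers 36 to 43 had median count ratios with V of 1.01 and 0.840 over 436 pairs, so it was partly shared by these neighbours. Primers 20 to 27 had 0.180 and 0.510 over 313 pairs. V partners make up most partners of every region fragment, so the adjustment itself sets their median adjusted ratio near 1. That scale therefore cannot show an excess of V as a whole. It does show how V partners differ among themselves. The V section was divided into 4 stretches of equal length. Their medians, in order of distance, were 0.931, 1.10, 0.946 and 1.03 in replicate 1 and 0.937, 1.11, 0.967 and 0.970 in replicate 2. Of 123 V fragments, a median over 3 region fragments of at least 2 in both replicates was found for 1, forward 338 (chr12:115609122-115616162), at 2.25 and 2.44. Its pair with reverse 29 had 52 and 86 counts and adjusted ratios of 6.77 and 4.29. Primers 20 to 27 also had 1.88 and 1.92 with forward 338.

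The strongest V pair was forward 34 with reverse 181 (chr12:115048372-115052571), 558 kb away. It had 3709 and 6277 counts, a count ratio of 31.2 ± 13.7 (SD, n = 2) and adjusted ratios of 21.4 and 26.5. It was not called in replicate 2 on counts, and it was called in both replicates with primer levels removed by means, a setting that called 2 of the region's pairs and 0.307% of all pairs. The other region fragments did not share it. Forward 28 had 347 and 647 counts with reverse 181, at adjusted ratios of 0.865 and 0.884, and forward 31 had 396 and 359 counts, at 0.708 and 0.884.

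Other leading pairs were not all single ones. In V these were forward 28 with reverse 514 at 2.10 and 3.45 and forward 31 with reverse 695 at 2.49 and 2.10, on the adjusted scale. The medians over 3 region fragments were 2.10 and 1.86 for reverse 514 and 1.23 and 0.973 for reverse 695. In the upper flank the leading pair was forward 832 with reverse 35 at 2.17 and 2.75. By count ratio, forward 334 with reverse 29 reached 3.88 and 4.13, and forward 556 with reverse 35 reached 10.7 and 9.59. Other region fragments shared these levels: the median count ratios over 3 region fragments were 5.70 and 4.13 for forward 334. They were 10.7 and 9.59 for forward 556. Of the 602 pairs, 60 had adjusted ratios of at least 2 in both replicates, where 5.74% of all pairs did, and 10 of the 60 were among the 369 V pairs.

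The replicates ranked the region's pairs alike on counts and less so once shared levels were removed. Over the 602 pairs, which share fragments, Spearman's rho between replicates was 0.891 for log2 counts, 0.825 for count ratios and 0.735 for adjusted ratios. Over all 10415 pairs it was 0.787, 0.753 and 0.464.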

How the data were processed

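The authors deposited 1 matrix of raw counts per replicate, whole numbers per primer pair over 98 forward and 108 reverse HindIII fragments. Novoalign and mm9 are named per the submitters' processing notes; versions are not given in the sources used here. A step named transpurge stands in the headers, per the file headers themselves. Gene desert pairs were not analysed here.

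Each replicate was fitted alone over all 10415 pairs at least 10 kb apart. Counts were smoothed on log10 distance by lowess (span 0.3) to obtain expected counts, and squared residuals were smoothed likewise to obtain the SD. Upper-tail p-values came from a Weibull distribution fitted to the shifted z, and q from Benjamini-Hochberg adjustment over all pairs. The primer-adjusted ratio came from log2(count + 1), by removing in turn the distance trend and each primer's median. Removal by primer means (50 rounds) was an alternative. The procedure was also run on simulated data built from its own fitted trend and primer levels. Such data cannot show whether it suits the measured counts.

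The pairs, sections and alternatives were chosen with earlier results of these data known. Named are the 6 fragments, called pairs, all Emu and J pairs, the 2 highest count ratios of each fragment and the highest adjusted pair of each section, both by the lower of the 2 replicate values. Reverse 77, forward 78, forward 76, reverse 70, forward 68, forward 71, reverse 22, reverse 94, forward 338 and the medians of single partners were added with their values in view. So were forward 74, reverse 73, reverse 61 and forward 58. The software was Python 3.11.15 with statsmodels 0.14.6 for lowess, SciPy 1.17.1 for the Weibull distribution, NumPy 2.4.6, and matplotlib 3.10.9 for drawing.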

Additional observations from a re-analysis of the deposited data

How the results depend on the processing

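The 7 calls of the region became 2 with primer levels removed by means, 1 by means without called pairs, 1 by medians, 4 with no minimum distance and 4 at q under 0.001. On a log2 scale 0 were called, where 85 of the region's 602 pairs and 253 of all 10415 had an unadjusted Weibull p under 0.05 in both replicates, against 52 and 170 on counts. By medians and called on log2, an alternative chosen after seeing the data, 2 were called. A single replicate gave 9 to 13 calls, the 13 without replicate 2. Other spans, a 20 kb minimum, q under 0.05 and thinning of replicate 2 gave 6 to 8. The region's median count ratio of 1.15 became 0.701 by means, 0.8001 by means without called pairs, 0.999 by medians and 2.96 on the log2 scale. For it, single replicates gave 1.11 to 1.18. The median of all pairs moved as well, from 0.357 and 0.404 in replicates 1 and 2. It became 0.722 and 0.763 by means and 0.783 and 0.810 by means without called pairs. On the log2 scale it was 1.15 and 0.973, and by medians it was 1. By means the region's median was thus no higher than that of all pairs. The mean count ratio with the Emu and J section, 15.6 ± 2.02 (SD, n = 2), became 4.48 by means, 5.68 by means without called pairs, 7.77 by medians, 3.95 as a median over pairs and 68.7 on the log2 scale. Without reverse 81 it was 5.19, and 6.65 by medians; both were chosen after seeing the data. Single replicates gave 14.1 to 17.0. The mean ratio of all pairs was 0.955 and 0.962 on counts and 0.987 and 0.990 by means. It was 1.30 and 1.33 by means without called pairs, 1.63 and 1.70 by medians and 3.12 and 2.43 on the log2 scale. The Emu and J section was highest and the lower flank lowest under all 3 primer corrections; the region's own 4 pairs were highest on the log2 scale and, in replicate 1, on counts. No paired analysis was possible because there is 1 group only. The median count of 40 over all pairs in replicate 1 limits what single V pairs can show.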
